A study of Homo sapiens with 9 samples.

Results

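The genes described here are ATF4 and its companions in the integrated stress response, in MDA-MB-231 breast cancer cells exposed to YM-155. The 34 genes were listed by name: the eIF2 kinases and eIF2 alpha, the phosphatase subunits that oppose them, ATF4, its partner transcription factors and its target genes. A gene was taken as measured where the array had a probe set with that symbol alone, and 32 of the 34 were, among 22109 genes tested. GPT2 was not analysed here. ATF5 shares its probe set with the microRNA gene MIR4751, and that shared value is given apart from the counts.

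In the integrated stress response, 4 kinases sense different insults and phosphorylate the alpha subunit of the initiation factor eIF2. That slows most protein synthesis, while the mRNA of the transcription factor ATF4 is translated more. ATF4 pairs with other leucine zipper proteins, turns on genes for amino acid synthesis and import and for redox balance, and under lasting stress shares targets with CHOP, the product of DDIT3. Phosphatase complexes built on PPP1R15A or PPP1R15B remove the phosphate and end the response. The arrays read mRNA only, so neither phosphorylation of eIF2 nor ATF4 protein was measured.

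MDA-MB-231 is an established human line derived from a pleural effusion of a breast cancer patient, and YM-155 (sepantronium bromide) is a drug known for lowering survivin. Total RNA from 9 samples, 3 per group, was hybridised to whole-transcript arrays. The control cells had no treatment. The 8 h cells received YM-155 in steps adding up to 83 ng/ml, and the submitters recorded no obvious cell death in them. The 20 h cells received 14.6 ng/ml, the stated LC50. Dose and time differ together and cannot be told apart, and no vehicle or time was stated for the controls. Whether the 3 arrays of a group came from separate cultures is not stated. The p-values therefore describe the spread among these samples, and that spread may be technical.

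Each value is an RMA summary on the log2 scale, so a difference of 1 is a 2-fold difference, and the median level of all genes was 3.89. The tests compare arrays for a gene and not one gene with another, and the number of arrays limits the precision. A level set beside the median of all genes is only a rough guide to brightness. In bulk RNA, fewer cells of a kind and less RNA per cell cannot be told apart. Of 7 markers of the line, 6 (all but SPARC) lay above the median of all genes, and so did 6 of 10 luminal markers. That count thus does not tell the line from luminal cells, while the levels differed. The median level was 9.26 over the line markers and 4.39 over the luminal ones. On the linear scale the line markers summed to 5596 to 6524 in controls, 5569 to 5922 at 8 h and 5838 to 6023 at 20 h. Averaged over the 9 arrays, the 5 measured leukocyte markers lay between 1.78 and 3.46, all below that median. PTPRC, the marker common to leukocytes, had group means between 1.75 and 1.79. Summed on the linear scale, they read 26.1 to 28.0 in controls, 28.0 to 29.1 at 8 h and 29.1 to 39.5 at 20 h. CD14 (difference 0.77, 20 h mean 3.93) and ITGAM (0.45, 20 h mean 2.68) were called higher at 20 h. With control replicate 3 (described below) left out, CD14 was still called (0.89, adjusted p = 0.0151) and ITGAM was not (0.45, adjusted p = 0.0722). The 10 luminal markers summed to 227 to 260, 229 to 240 and 260 to 262, and CDH1 (0.45 at 8 h) and TFF1 (0.33 at 8 h and 1.38 at 20 h) were called higher, of which CDH1 was not without that control (0.37, adjusted p = 0.0773). The part of either list in the results below was not tested.

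Control replicate 3 stood apart from the other controls before any comparison. Over genes above the median level, the log2 difference had an SD of 0.312 between it and control 1, 0.313 between it and control 2, and 0.187 between controls 1 and 2. Among the stress genes, its PPP1R15A level was 1.05 above the mean of the other 2 controls, EIF4EBP1 0.81, DDIT3 0.67, CEBPB 0.65, CHAC1 0.50, NUPR1 0.46, PYCR1 0.41, TRIB3 0.36, PPP1R15B 0.35 and ATF4 0.32. EIF2S1 (-0.32), DDIT4 (-0.39) and EIF2AK3 (-0.39) were lower in it. So 10 of the 32 genes were over 0.3 higher and 3 over 0.3 lower, while the median over the 32 was 0.06 and that of all genes 0.01. Where leaving it out makes or ends a call of a gene named here, the value without it is given beside the call.

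**Figure D1:**
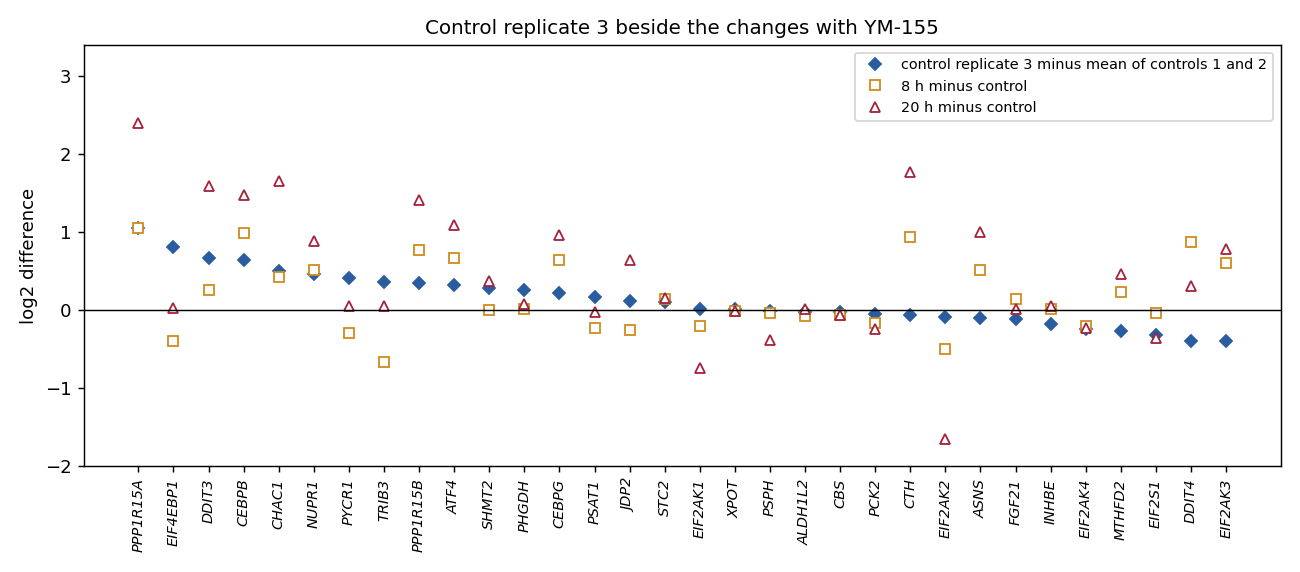
Points show log2 differences for each of the 32 measured genes, ordered by the value of control replicate 3 minus the mean of controls 1 and 2 (diamonds); squares are 8 h minus control and triangles 20 h minus control, both from all 3 controls. PPP1R15A had the highest diamond, 1.05, which equals its 8 h difference, while CTH and ASNS differed with YM-155 with diamonds near 0.

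At 8 h, 9 of the 32 genes (28.1%) rose and 2 (6.25%) fell at an adjusted p under 0.05 from limma. Over all genes tested, 5.93% were called higher and 6.28% lower in that comparison. The genes that rose were ATF4, CEBPB, CEBPG, EIF2AK3, PPP1R15A, PPP1R15B, DDIT4, ASNS and CTH, and those that fell were EIF2AK2 and TRIB3. The median difference of the 32 was 0.02 against -0.00 for all genes, and the median absolute difference 0.26 against 0.13.

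At 20 h, 14 genes (43.8%) rose and 4 (12.5%) fell, against 13.1% and 17.2% of all genes. Of these, 8 rose and 1 fell at least 2-fold, with ASNS at the limit (1.00). The share of all genes called at that size was not counted, so whether these counts are unusual cannot be told. DDIT3, CHAC1, NUPR1, JDP2, SHMT2 and MTHFD2 were called at 20 h and not at 8 h, and DDIT4 no longer was. EIF2AK1, EIF2AK2, EIF2S1 and PSPH fell. The median difference was 0.12 against 0.03 for all genes, and the median absolute difference 0.38 against 0.19. Both comparisons use the same 3 controls.

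Set directly against 8 h, the 20 h cells had 11 genes higher (34.4%) and 5 lower (15.6%), with 8.95% and 13.6% of all genes. This comparison does not use the controls' levels, and the median difference was 0.22 against 0.02 for all genes.

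**Figure D2:**
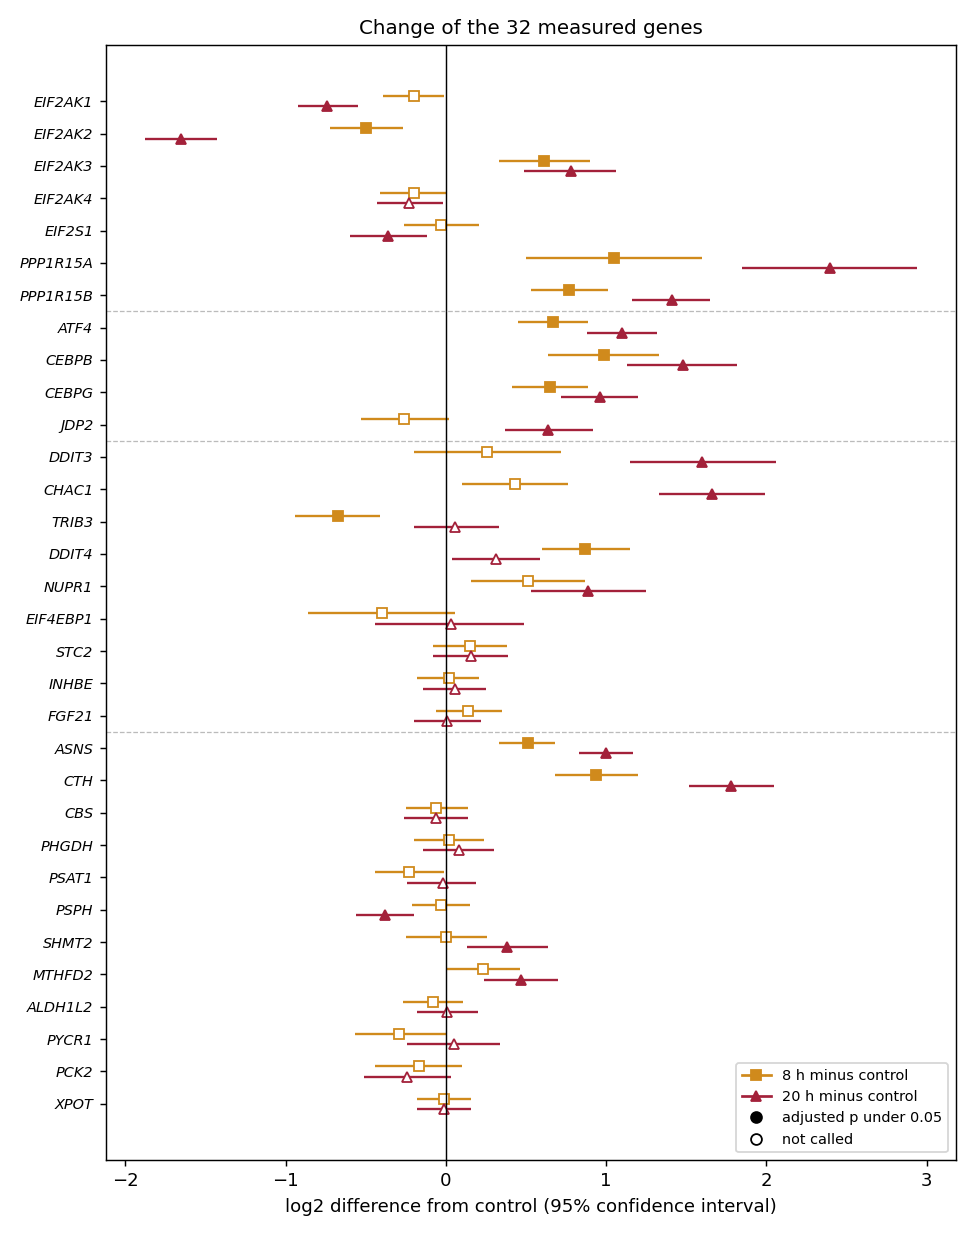
Differences from control on the log2 scale (x axis) with 95% confidence intervals for the 32 measured genes (y axis), at 8 h (squares) and 20 h (triangles); filled points were called at an adjusted p under 0.05. PPP1R15A at 20 h lies farthest right (2.40) and EIF2AK2 at 20 h farthest left (-1.65). Dashed lines part kinases, eIF2 alpha and phosphatase subunits, then ATF4, CEBPB, CEBPG and JDP2, then effectors including DDIT3 and CHAC1, then enzymes with XPOT.

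ATF4 binds, with a C/EBP partner, a composite element often written TGATGCAA, and the promoters below show where that word occurs. RefSeq promoter windows (GRCh38.p14) were found for 25 of the 34 genes, and the 250 bases before each start were searched on both strands. TGATGNAA, which includes TGATGCAA, was present for 6 of these 25 genes (24.0%) and for 3.89% of the 27305 genes in the table. TGATGCAA itself was present for 5 (20.0%), against 0.97%. TGACGTCA, the palindromic cAMP response element, was in 1 of 25 (4.0%), against 2.03%. A match is a stretch of letters and not a shown binding site. The 34 genes were listed partly as ATF4 targets, so a larger share than in all genes may follow from that choice. The 25 genes had 38 windows and the 27305 genes 35116, and a gene with more windows has more sequence to match.

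Capitals mark the match in each stretch, which is written 5′ to 3′ on the gene's own strand. The PPP1R15B match starts 227 bases before the start, ASNS 68, JDP2 16, CHAC1 209, CEBPG 42, FGF21 54 and PPP1R15A 58. Each distance counts to the start of the window that holds the match. For JDP2 and CEBPG another listed start of the same gene lies upstream of the match. Their matches thus lie downstream of that other start, and at most 11 bases on each side are printed instead of 26. CHAC1 and FGF21 carry TGATGCAA on the opposite strand, so it reads TTGCATCA here.
PPP1R15B, chr1:204412011-204412067, minus strand: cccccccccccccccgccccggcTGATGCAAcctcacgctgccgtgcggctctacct
ASNS, chr7:97872443-97872502, minus strand: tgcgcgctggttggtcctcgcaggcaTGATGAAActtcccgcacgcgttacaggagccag
JDP2, chr14:75427995-75428021, plus strand: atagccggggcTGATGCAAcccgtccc
CHAC1, chr15:40953236-40953295, plus strand: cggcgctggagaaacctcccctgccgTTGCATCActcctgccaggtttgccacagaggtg
CEBPG, chr19:33374060-33374089, plus strand: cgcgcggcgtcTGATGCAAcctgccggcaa
FGF21, chr19:48755444-48755503, plus strand: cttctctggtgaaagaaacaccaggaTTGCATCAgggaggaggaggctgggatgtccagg
PPP1R15A, chr19:48872337-48872396, plus strand, with TGACGTCA: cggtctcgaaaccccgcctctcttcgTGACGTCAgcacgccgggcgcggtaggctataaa
Of the 6 genes with TGATGNAA, ASNS, JDP2, CHAC1, CEBPG and PPP1R15B rose at 20 h and FGF21 was not called. Of the 18 measured genes with a promoter window and no match, 7 rose at 20 h, among them ATF4, CEBPB, CTH and DDIT3. Over all genes 13.1% rose, and no relation of the match to the rise was tested.

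The 4 eIF2 kinases went different ways. EIF2AK3 encodes PERK, the kinase of the endoplasmic reticulum, and read 6.24, 6.00 and 5.73 in controls 1 to 3. It read 6.54, 6.51 and 6.76 at 8 h and 6.75, 6.69 and 6.87 at 20 h, and no treated array overlapped a control. The rise was 0.61 at 8 h (SE 0.13, 1.53-fold, adjusted p = 0.0116) and 0.78 at 20 h (SE 0.13, 1.72-fold, adjusted p = 0.000948). Without control replicate 3 these were 0.48 and 0.65, both still called, and without 8 h replicate 3 the 8 h value of 0.53 was not (adjusted p = 0.0506). The 20 h and 8 h levels differed by 0.17, within their spread (adjusted p = 0.41).

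EIF2AK2 encodes PKR, the kinase activated by double-stranded RNA, and fell in steps. Controls read 8.40, 8.43 and 8.32, the 8 h arrays 7.82, 7.90 and 7.95, and the 20 h arrays 6.89, 6.79 and 6.52, with no overlap between any of the groups. The difference was -0.50 at 8 h (SE 0.10, adjusted p = 0.0102) and -1.65 at 20 h (SE 0.10, adjusted p = 1.52e-06), 3.15-fold lower than control. It was the only one of the 32 genes to fall at least 2-fold.

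EIF2AK1 encodes HRI, the heme-regulated kinase that also relays mitochondrial stress. It read 7.63, 7.73 and 7.70 in controls, 7.56, 7.45 and 7.45 at 8 h and 7.07, 6.83 and 6.94 at 20 h. All 8 h arrays lay below all controls, but the difference of -0.20 was not called (adjusted p = 0.176). The 20 h arrays lay lower again, by -0.74 from control (SE 0.08, adjusted p = 8.03e-05) and -0.54 from 8 h (adjusted p = 0.00126).

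EIF2AK4 encodes GCN2, which senses uncharged tRNA, and was not called. Its controls spread from 6.79 to 7.11, with control replicate 3 lowest, and the 20 h arrays read 6.74, 6.78 and 6.65. The 20 h difference was -0.23 (adjusted p = 0.0991), and -0.31 without control replicate 3 (adjusted p = 0.0234).

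EIF2S1 encodes eIF2 alpha, the substrate of the 4 kinases. Controls read 7.54, 7.66 and 7.28, the 8 h arrays 7.38, 7.43 and 7.59, and the 20 h arrays 7.07, 7.13 and 7.19. The 8 h arrays lay among the controls and all 20 h arrays below both groups. The 20 h difference was -0.36 (SE 0.11, adjusted p = 0.0261), with -0.47 (adjusted p = 0.00432) without control replicate 3. This call was lost when control 1 (-0.34, adjusted p = 0.0791) or control 2 (-0.28, adjusted p = 0.1) was left out, and when 20 h replicate 1 (-0.33, adjusted p = 0.0801) or 20 h replicate 2 (-0.36, adjusted p = 0.0656) was.

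The phosphatase subunits that reverse the kinases rose. PPP1R15A encodes GADD34, the inducible subunit, and read 7.43, 7.29 and 8.42 in controls 1 to 3. It read 8.88, 8.89 and 8.51 at 8 h and 10.10, 10.12 and 10.10 at 20 h. Control replicate 3 came within 0.1 of the lowest 8 h array, while the 20 h arrays were tightly grouped above all others. The difference was 1.05 at 8 h (SE 0.25, 2.07-fold, adjusted p = 0.0202) and 2.40 at 20 h (SE 0.25, 5.26-fold, adjusted p = 4.11e-05). Without control replicate 3 these were 1.40 (adjusted p = 0.000185) and 2.75. The 8 h call was lost when any of controls 1 and 2 or 8 h replicates 1 and 2 was left out, with values from 0.84 to 0.99 and adjusted p from 0.0711 to 0.0776. It was also lost with 8 h replicates 1 and 2 merged (0.99, adjusted p = 0.0739). The same held with only the 2 groups compared in the fit (1.05, adjusted p = 0.0738).

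PPP1R15B encodes the constitutive subunit, CReP. It read 8.44, 8.57 and 8.86 in controls, 9.44, 9.44 and 9.30 at 8 h and 10.01, 10.11 and 9.97 at 20 h. Its groups did not overlap. The rise was 0.77 at 8 h (SE 0.11, 1.71-fold, adjusted p = 0.00149) and 1.41 at 20 h (SE 0.11, 2.65-fold, adjusted p = 6.84e-06), and 20 h was 0.64 above 8 h (adjusted p = 0.00223).

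EIF4EBP1, an ATF4 target whose product restrains cap-dependent translation, was not called against control. Controls read 7.14, 7.13 and 7.95, the 8 h arrays 7.18, 7.03 and 6.81 and the 20 h arrays 7.25, 7.62 and 7.43. Control replicate 3 was the highest of the 9 arrays, and the 95% interval at 8 h ran from -0.86 to 0.06. Without that array the difference was -0.13 at 8 h instead of -0.40 and 0.30 at 20 h instead of 0.03, and neither was called (adjusted p = 0.659 and 0.141). The 20 h level exceeded that of 8 h by 0.43, which was called without control replicate 3 (adjusted p = 0.0319) and not with all arrays (0.183).

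**Figure D3:**
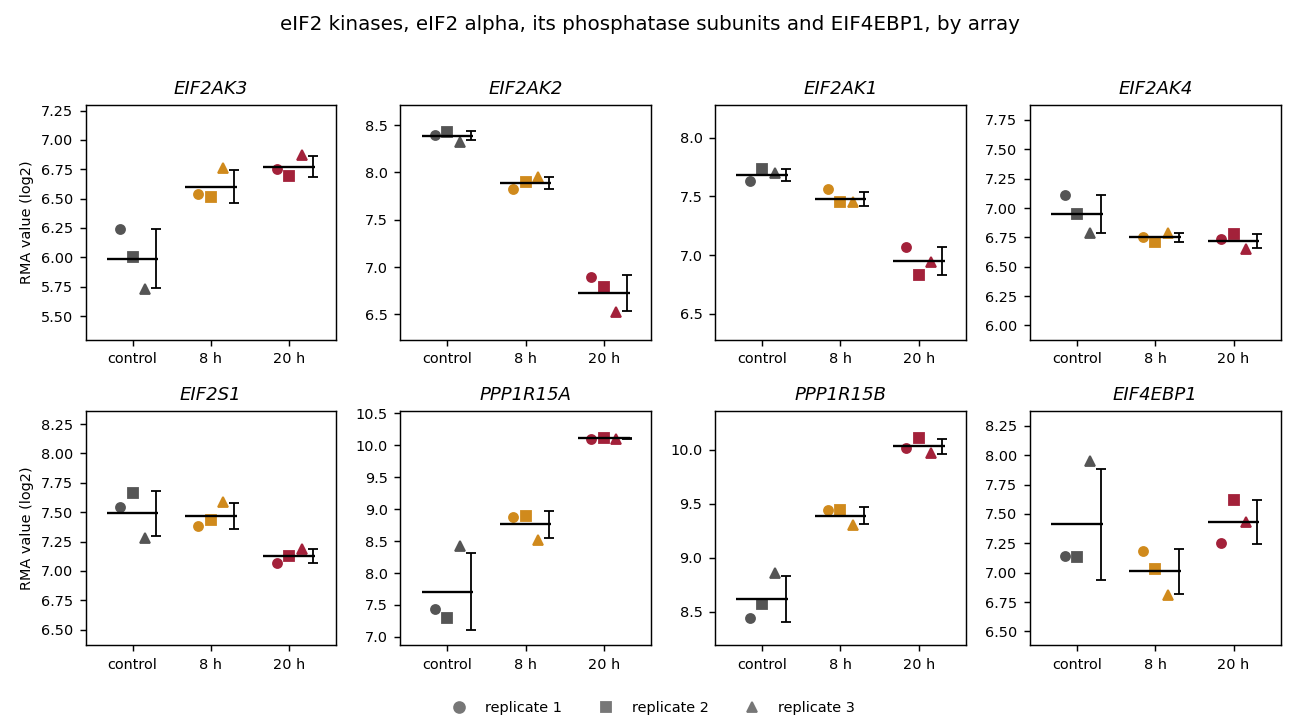
RMA values on the log2 scale (y axis, which does not start at 0 and differs between panels) for each array by group, with the group mean (line) and SD (bar, n = 3). EIF2AK3, PPP1R15A and PPP1R15B sit higher in treated arrays and EIF2AK2 and EIF2AK1 lowest at 20 h, and control replicate 3 (triangle) lies high for PPP1R15A (8.42) and EIF4EBP1 (7.95).

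ATF4 itself is expressed well above the median of all genes and rose at both times. Controls read 8.22, 8.25 and 8.55, the 8 h arrays 9.05, 9.03 and 8.95, and the 20 h arrays 9.47, 9.48 and 9.38. The groups did not overlap, and control replicate 3 was the control nearest the treated arrays. The difference was 0.67 at 8 h (SE 0.10, 1.59-fold, adjusted p = 0.00171) and 1.10 at 20 h (SE 0.10, 2.14-fold, adjusted p = 1.64e-05). Without control replicate 3 it was 0.78 and 1.21, and 20 h was 0.43 above 8 h (adjusted p = 0.0101).

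The C/EBP partners rose with it. CEBPB, a factor that is also a target of ATF4, read 4.62, 4.62 and 5.27 in controls, 5.81, 5.81 and 5.86 at 8 h and 6.34, 6.35 and 6.26 at 20 h. Both treated groups lay above all controls. The rise was 0.99 at 8 h (SE 0.15, 1.98-fold, adjusted p = 0.00249) and 1.48 at 20 h (SE 0.15, 2.78-fold, adjusted p = 4.52e-05). These were 1.20 and 1.69 without control replicate 3. The further 0.49 from 8 h to 20 h was called (adjusted p = 0.0441), but not when any single 8 h or 20 h array was left out (adjusted p from 0.086 to 0.114).

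CEBPG, the partner that forms a heterodimer with ATF4 on the composite element, read 5.84, 5.51 and 5.90 in controls. The 8 h arrays read 6.49, 6.35 and 6.35 and the 20 h arrays 6.75, 6.75 and 6.63, again without overlap. The rise was 0.65 at 8 h (SE 0.11, adjusted p = 0.00348) and 0.96 at 20 h (SE 0.11, 1.95-fold, adjusted p = 7.2e-05). The 20 h and 8 h levels differed by 0.31, which was not called with all arrays (adjusted p = 0.0618) and was called without control replicate 2 (0.0221) or control replicate 3 (0.0456).

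JDP2, a leucine zipper repressor of the AP-1 family, was higher in the 20 h group. Controls read 4.15, 3.99 and 4.19, the 8 h arrays 3.63, 4.09 and 3.84, and the 20 h arrays 4.84, 4.83 and 4.59. The 20 h difference was 0.64 (SE 0.12, adjusted p = 0.00251), and 20 h exceeded 8 h by 0.90 (adjusted p = 0.000596). At 8 h the difference of -0.26 was not called (adjusted p = 0.243). The probe set shared by ATF5, a relative of ATF4, and MIR4751 read 5.46, 5.37 and 5.69 in controls, 5.69, 5.61 and 5.30 at 8 h and 6.13, 6.16 and 5.92 at 20 h. Its mean was 0.03 above control at 8 h and 0.56 above at 20 h, with no test, and which of its transcripts is read cannot be told apart.

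DDIT3 encodes CHOP, the factor tied to cell death after lasting stress. On its brighter probe set controls read 3.55, 3.76 and 4.32, the 8 h arrays 4.22, 4.36 and 3.82, and the 20 h arrays 5.69, 5.49 and 5.26. The 8 h arrays overlapped the controls, where control replicate 3 was highest, and the 20 h arrays stood clear. The difference was 0.26 at 8 h (95% interval -0.20 to 0.72, adjusted p = 0.521) and 1.60 at 20 h (SE 0.21, 3.04-fold, adjusted p = 0.000182). Without control replicate 3 the 8 h difference was 0.48 (adjusted p = 0.124).

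A second DDIT3 probe set gave another reading at 8 h. It read 2.35, 2.47 and 2.11 in controls, 2.93, 3.03 and 2.83 at 8 h and 4.56, 4.09 and 4.05 at 20 h, and here control replicate 3 was the lowest control. Adjusted over all probe sets, its difference was 0.62 at 8 h (SE 0.14, adjusted p = 0.0202) and 1.92 at 20 h (adjusted p = 5.81e-06). Its levels in the control and 8 h arrays lay below the median of all genes. The probe sets thus differed in their 8 h call and shared that of 20 h.

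CHAC1, a glutathione-degrading enzyme downstream of ATF4 and CHOP, read 4.35, 4.35 and 4.84 in controls, 4.89, 4.90 and 5.04 at 8 h and 5.95, 6.37 and 6.19 at 20 h. Every 8 h array lay above every control, the third control by 0.05, yet the difference of 0.43 was not called (SE 0.15, adjusted p = 0.0966). It was called without control replicate 3 (0.60, adjusted p = 0.0124). At 20 h the rise was 1.66 (SE 0.15, 3.16-fold, adjusted p = 1.71e-05).

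NUPR1, a small stress-induced chromatin protein, read 5.66, 5.64 and 6.11 in controls, 6.48, 6.28 and 6.19 at 8 h and 6.67, 6.96 and 6.45 at 20 h. Its 8 h difference of 0.51 was not called with all controls (SE 0.16, adjusted p = 0.0678) and was without control replicate 3 (0.67, adjusted p = 0.0193). The 20 h rise was 0.89 (SE 0.16, 1.85-fold, adjusted p = 0.0017).

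TRIB3 and DDIT4 went another way than ATF4 across the 3 groups. TRIB3, a pseudokinase that restrains ATF4 and CHOP, read 5.96, 5.85 and 6.27 in controls, 5.41, 5.47 and 5.19 at 8 h and 6.03, 6.07 and 6.17 at 20 h. It fell by 0.67 at 8 h (SE 0.12, adjusted p = 0.00484), without overlap, and by 0.55 without control replicate 3 (adjusted p = 0.00866). At 20 h it lay among the controls, with a difference of 0.06 (95% interval -0.20 to 0.33), and above 8 h by 0.74 (adjusted p = 0.00156).

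DDIT4 encodes REDD1, an inhibitor of mTORC1 signalling. It read 6.94, 6.98 and 6.57 in controls, 7.82, 7.78 and 7.51 at 8 h and 7.12, 7.21 and 7.10 at 20 h. It rose by 0.87 at 8 h (SE 0.12, 1.83-fold, adjusted p = 0.00148). At 20 h its arrays lay above the controls by 0.31, which was not called (adjusted p = 0.0876; 0.18 without control replicate 3, adjusted p = 0.24). The 20 h level was below that of 8 h by -0.56 (adjusted p = 0.00892).

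**Figure D4:**
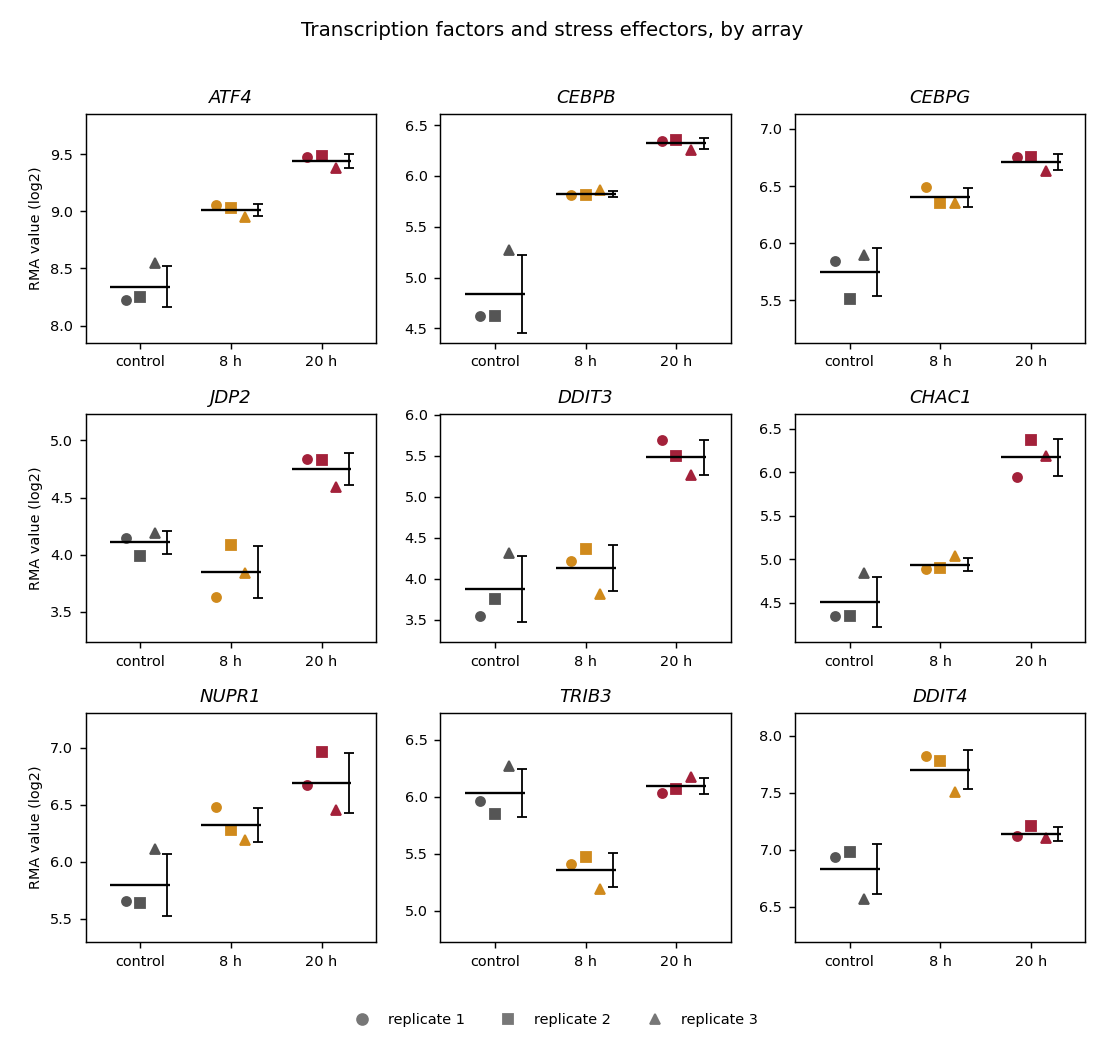
RMA values on the log2 scale (y axis, which does not start at 0 and differs between panels) for each array by group, with the group mean (line) and SD (bar, n = 3). ATF4, CEBPB and CEBPG were called higher at both times, DDIT3 on this probe set, CHAC1, NUPR1 and JDP2 at 20 h, while TRIB3 was lowest and DDIT4 highest at 8 h.

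Among the enzymes, ASNS and CTH rose at both times. ASNS makes asparagine, and read 5.24, 5.19 and 5.12 in controls, 5.62, 5.66 and 5.79 at 8 h and 6.14, 6.19 and 6.21 at 20 h. The rise was 0.51 at 8 h (SE 0.08, 1.42-fold, adjusted p = 0.00232) and 1.00 at 20 h (SE 0.08, adjusted p = 7.11e-06). CTH, which makes cysteine from cystathionine, read 4.31, 4.48 and 4.33 in controls, 5.31, 5.30 and 5.33 at 8 h and 6.28, 6.32 and 5.87 at 20 h. It rose by 0.94 at 8 h (SE 0.12, 1.92-fold, adjusted p = 0.000734) and 1.78 at 20 h (SE 0.12, 3.44-fold, adjusted p = 2.25e-06), the largest fold among the enzymes. In both genes the 3 groups did not overlap, and control replicate 3 differed from the mean of the other controls by -0.10 for ASNS and -0.06 for CTH.

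The enzymes of serine synthesis did not rise. PHGDH, the first enzyme of the pathway, lay below the median of all genes, from 3.32 to 3.70 over the 9 arrays, and differed from control by 0.08 at 20 h (95% interval -0.14 to 0.30). PSAT1, the aminotransferase that follows, read 8.27, 8.31 and 8.46 in controls, 8.11, 8.16 and 8.08 at 8 h and 8.45, 8.38 and 8.14 at 20 h. Its 8 h arrays all lay below the controls, by -0.23, which was not called (adjusted p = 0.177). PSPH, the phosphatase that yields serine, read 6.26, 6.12 and 6.19 in controls, 6.19, 6.12 and 6.18 at 8 h and 5.86, 5.70 and 5.89 at 20 h. It fell by 0.38 at 20 h (SE 0.08, adjusted p = 0.00489), with no overlap.

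Of the mitochondrial folate enzymes SHMT2, MTHFD2 and ALDH1L2, the first and second rose at 20 h. SHMT2, which moves a one-carbon unit from serine to folate, read 6.19, 6.01 and 6.39 in controls, 6.18, 6.36 and 6.06 at 8 h and 6.52, 6.65 and 6.56 at 20 h. Its 20 h rise was 0.38 (SE 0.11, adjusted p = 0.0263). That call was lost when control 1 (0.38, adjusted p = 0.0684) or control 2 (0.29, adjusted p = 0.1) was left out, and when 20 h replicate 2 (0.35, adjusted p = 0.0869) or 20 h replicate 3 (0.39, adjusted p = 0.0595) was. MTHFD2, the next enzyme, read 5.54, 5.74 and 5.37 in controls, 5.83, 5.78 and 5.74 at 8 h and 5.97, 6.13 and 5.97 at 20 h. It rose by 0.47 at 20 h (SE 0.10, adjusted p = 0.00512), and its 8 h difference of 0.23 was not called (adjusted p = 0.196).

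PYCR1, which makes proline, was not called against control. It read 5.11, 4.89 and 5.41 in controls, 4.92, 4.94 and 4.69 at 8 h and 5.21, 5.23 and 5.11 at 20 h. The 20 h arrays exceeded the 8 h arrays by 0.34 (adjusted p = 0.0904; 0.0329 without control replicate 3, which enters only the estimate of spread).

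**Figure D5:**
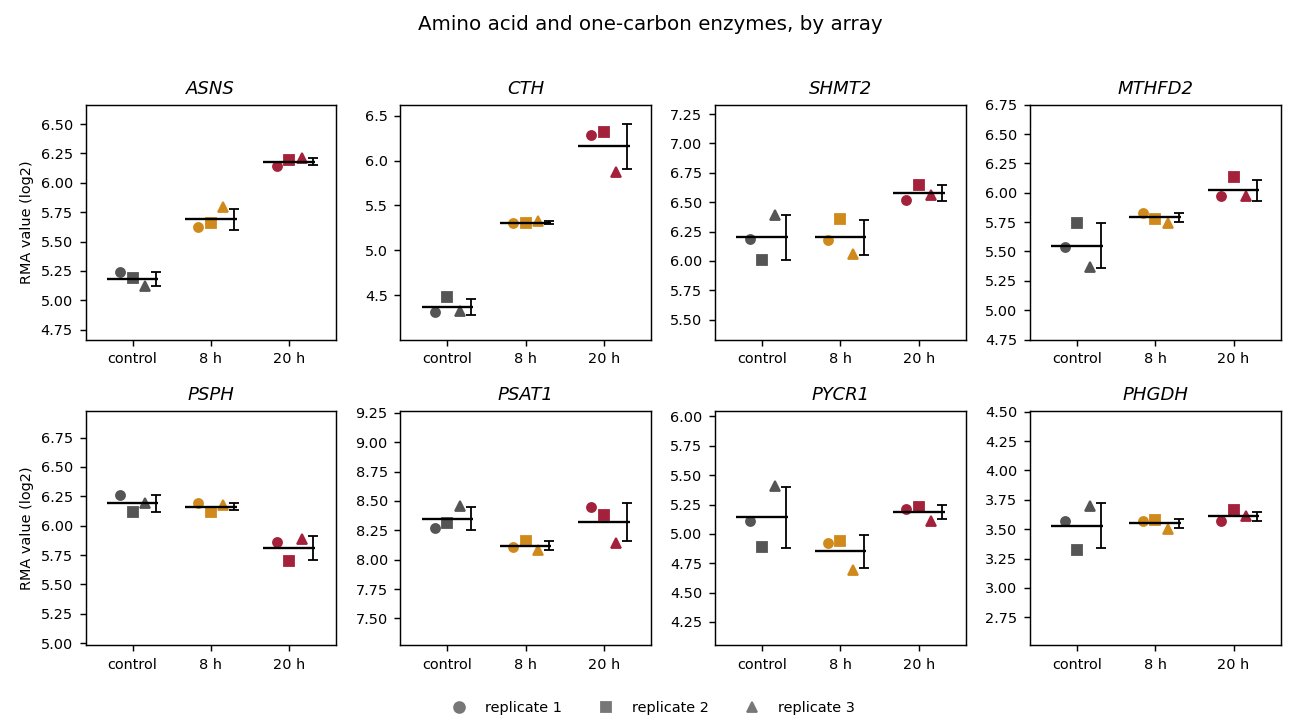
RMA values on the log2 scale (y axis, which does not start at 0 and differs between panels) for each array by group, with the group mean (line) and SD (bar, n = 3). ASNS and CTH stepped up from control to 8 h to 20 h, SHMT2 and MTHFD2 were higher at 20 h, PSPH was lower at 20 h, and PSAT1, PYCR1 and PHGDH were not called against control.

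In all, 12 of the 32 genes were called in no comparison. They were PHGDH, PSAT1, PYCR1, EIF2AK4 and EIF4EBP1, given above, and STC2, INHBE, FGF21, ALDH1L2, PCK2, CBS and XPOT. STC2 (stanniocalcin 2), INHBE (an activin subunit), FGF21 (a secreted metabolic hormone), ALDH1L2 (a mitochondrial folate enzyme), PCK2 (mitochondrial phosphoenolpyruvate carboxykinase) and CBS (which makes the cystathionine that CTH splits) lay below the median of all genes, as PHGDH did. CBS read 2.99, 2.67 and 2.81 in controls and 2.75 to 2.77 in all 6 treated arrays. XPOT, the tRNA exporter, was bright and steady, from 9.30 to 9.48, with a 20 h difference of -0.01 (95% interval -0.18 to 0.16). Leaving out PYCR1, EIF2AK4 and EIF4EBP1, the differences of the other 9 ran from -0.23 to 0.15 at 8 h and from -0.24 to 0.16 at 20 h, with SEs from 0.08 to 0.12. A low array value bounds what a probe set can show. For the genes below the median, these differences thus do not establish that the genes are silent or unaltered. For PSAT1 and XPOT, which lay well above it, the SEs limit what could be seen.

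Companion genes of the pathway were counted from 6 lists. Of 39 measured further ATF4 targets, 13 rose and 2 fell at 8 h, and 20 rose and 4 fell at 20 h, with median differences of 0.11 and 0.31. As shares of the 39 these were 33.3% and 5.13% at 8 h and 51.3% and 10.3% at 20 h, against 5.93% and 6.28%, and 13.1% and 17.2%, of all genes. Without control replicate 3 the counts were 12 and 1, and 22 and 5, and all-gene shares in that fit are not given here. ATF3, a leucine zipper factor of the same response, rose by 2.63 at 8 h (SE 0.19, adjusted p = 2.65e-05) and 3.57 at 20 h (adjusted p = 5.71e-07). SESN2, an inhibitor of mTORC1 signalling, rose by 1.42 (adjusted p = 0.00405) and 2.65 (adjusted p = 1.92e-05), and CREBRF, a regulator of the CREB3 family, by 1.49 and 1.94. SLC7A11, the cystine importer, rose by 1.31 at 8 h and 0.90 at 20 h and was lower at 20 h than at 8 h by -0.41 (adjusted p = 0.0231), as DDIT4 was. ZFAND2A, a proteasome-linked stress protein, rose by 0.71 and 1.89, and BBC3, the death protein PUMA, by 0.89 at 20 h (adjusted p = 3.97e-05). These genes were named for the size of their differences, and all of them rose against control. Those that fell include AARS1 at 8 h (-0.38, adjusted p = 0.0234), not called without control replicate 3 (-0.33, adjusted p = 0.0563). ATG5 fell at 20 h (-0.45, adjusted p = 0.00769).

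The cysteine and glutathione genes around CTH and CHAC1 were mixed. Of 8 measured, 2 rose and 1 fell at 8 h, and 2 rose and 4 fell at 20 h. All-gene shares were 5.93% higher and 6.28% lower at 8 h, and 13.1% and 17.2% at 20 h, and in a list this short 1 gene is 12.5%. The subunits of glutamate-cysteine ligase rose, GCLC by 1.20 at 8 h and 1.05 at 20 h (adjusted p = 4.01e-05 and 1.42e-05) and GCLM by 0.96 and 1.32 (adjusted p = 0.000206 and 5.1e-06). GGCT, an enzyme of gamma-glutamyl peptide breakdown, differed by -0.50 and -1.08, and MTR, methionine synthase, by -1.09 at 20 h.

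Folate and serine genes outside the 34 fell or were not called. Of 12 measured, 3 fell at 8 h and 4 at 20 h by limma, and 0 rose at either time. At an unadjusted p under 0.05, 0 rose at 8 h and 1 at 20 h. The falls were 25.0% and 33.3% of the list, against 6.28% and 17.2% of all genes. TYMS, thymidylate synthase, differed by -0.67 at 8 h and -2.14 at 20 h (adjusted p = 2.51e-07). SHMT1, the cytosolic counterpart of SHMT2, differed by -0.58 and -1.65 (adjusted p = 9.06e-07), MTHFD1, the cytosolic counterpart of MTHFD2, by -0.39 and -1.30, and SFXN1, the mitochondrial serine transporter, by -0.93 at 20 h. Other mitochondrial folate enzymes were not called at 20 h, with differences of 0.14 for MTHFD1L (adjusted p = 0.212), -0.03 for MTHFD2L (adjusted p = 0.894) and 0.01 for ALDH1L2 (adjusted p = 0.963).

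Among 11 measured genes of eIF2 and its exchange factor, 1 rose (9.09%) and 4 fell (36.4%) at 20 h, against 13.1% and 17.2% of all genes. EIF2B3, a subunit of the exchange factor eIF2B, differed by -0.97 (adjusted p = 2.44e-05), DENR, a reinitiation factor, by -0.97 (adjusted p = 2e-05) and EIF2S3, the gamma subunit of eIF2, by -0.49 (adjusted p = 0.00626), while EIF5 rose by 0.58 (adjusted p = 0.00614). At 8 h 2 rose and 2 fell (18.2% each, against 5.93% and 6.28% of all genes), and over the alternative settings those counts ran from 0 to 2 and from 0 to 3. Of 12 regulators of the kinases, 1 rose (8.33%) and 2 fell (16.7%) at 20 h, no larger shares than the 13.1% and 17.2% of all genes. The gene that rose was HSPA5, which is counted again in the unfolded protein response list below. IMPACT, an inhibitor of GCN2, differed by -1.16 (SE 0.16, adjusted p = 0.000284). DELE1, which relays mitochondrial stress to HRI, differed by -0.35 (adjusted p = 0.0206), and by -0.26 without control replicate 3 (adjusted p = 0.0547).

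The other branches of the unfolded protein response share PERK's compartment. Of 21 measured genes, 4 rose and 2 fell at 8 h (2 to 5 and 0 to 4 over the alternative settings), and 10 rose and 0 fell at 20 h by limma, with 0 lower also at an unadjusted p under 0.05. Leaving out control replicate 3 gave 10 and 2 at 20 h, and all-gene shares in that fit are not given here. As shares of the 21, 19.0% rose and 9.52% fell at 8 h, against 5.93% and 6.28% of all genes. At 20 h 47.6% rose and 0% fell, against 13.1% and 17.2%. The list's median difference was -0.09 at 8 h and 0.28 at 20 h. HERPUD1, a degradation factor of the endoplasmic reticulum, rose by 0.66 and 1.63 (adjusted p = 6.15e-07 at 20 h). The chaperone HSPA5 rose by 1.14 at 20 h (adjusted p = 2.08e-06), the sensor ERN1 by 1.55 (adjusted p = 0.000242; 1.85 without control replicate 3) and SDF2L1 by 1.12. XBP1, the factor that ERN1 activates, differed by -0.15 at 8 h (adjusted p = 0.416) and rose by 0.78 at 20 h (adjusted p = 0.000166). From 8 h to 20 h 12 of the 21 were higher (57.1%, against 8.95% of all genes) and 1 lower (4.76%, against 13.6%), with 7 to 13 higher over the alternatives and the lowest count without 8 h replicate 3.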

How the data were processed

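RNA was measured on 9 arrays, 3 in each of 3 groups. The deposited values are log2 RMA summaries made by the authors in Affymetrix Expression Console, per the submitters' processing notes. Software versions and the genome build are not given in the sources used here.

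Of 53617 probe sets, 25713 were in the annotation table, 23558 with 1 symbol and 2155 with several. Probe sets with several symbols, and the 27904 outside the table, were left out. The brightest probe set was kept for the 618 genes with several, which gave 22109 genes, and 3 symbols were updated. No further normalization or filter was applied.

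A linear model with 1 mean per group was fitted across the 9 arrays with lmFit and eBayes of limma 3.58.1 in R 4.3.3 (residual degrees of freedom 6, prior 4.01). Two-sided p-values were adjusted for the 22109 genes by the Benjamini-Hochberg method, and a gene was called under 0.05. The smallest p an exact permutation test could reach here is 0.1, so that test was left out. The fit was tested on simulated data with independent normal noise for each gene. Those data held no array standing apart and no pair of unusually close replicates. That test thus cannot show how the fit deals with either feature.

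The 34 genes, the companion lists, the tests and the alternatives were chosen with earlier results of these data known. All 34 genes are accounted for, and up to 4 called members of each companion list per comparison, by absolute log2 difference, could be named. The proteins of the eIF2 kinases and ATF4 were to be described by length and identity and are not analysed here. The alternatives tried changed the probe sets (genes above the median level only, no collapsing, or averaging within a gene), the scaling (a second quantile normalization, or median centring) and the model (a pair of groups at a time, array weights, a trended and robust variance, the replicate number as a block). Others merged 8 h replicates 1 and 2, the closest pair of arrays within a group, or left out each array in turn. Over genes above the median level, the log2 difference of that pair had an SD of 0.147. The other 8 h pairs had 0.217 and 0.221. Promoters came from RefSeq (GRCh38.p14). Tables and figures used Python 3.11.15, pandas 2.3.3, numpy 2.4.6 and matplotlib 3.10.9.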

Additional observations from a re-analysis of the deposited data

Results flagged for a closer look

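For 16 of the 32 genes the 20 h difference from control was set directly against the 8 h difference and differed from it by limma at an adjusted p under 0.05. As both use the same controls, this is the test of 20 h against 8 h. The value at 20 h exceeded that at 8 h for PPP1R15A (1.35), DDIT3 (1.34), CHAC1 (1.23), JDP2 (0.90), CTH (0.84), TRIB3 (0.74), PPP1R15B (0.64), ASNS (0.49), CEBPB (0.49), ATF4 (0.43) and SHMT2 (0.38). It was lower for EIF2AK2 (-1.16), DDIT4 (-0.56), EIF2AK1 (-0.54), PSPH (-0.35) and EIF2S1 (-0.34). So 34.4% of the 32 genes were higher and 15.6% lower, against 8.95% and 13.6% of all genes. The calls of SHMT2, CEBPB, PSPH and EIF2S1 did not hold under all alternatives. Dose and time both differ between these groups and cannot be told apart. TRIB3 and DDIT4 differ from the rest in that they were called against control at 8 h and not at 20 h.

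Signal also lay in probe sets outside the gene tests. The probe set shared by ATF5 and MIR4751 was 0.56 above control at 20 h, with no test. The second DDIT3 probe set was 1.92 above control at 20 h and was called at 8 h, where the brighter one was not.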

How the results depend on the processing

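The calls of the 32 genes held under all 19 alternatives for 7 of 9 rises and 2 of 2 falls at 8 h (not PPP1R15A and EIF2AK3), 13 of 14 rises and 3 of 4 falls at 20 h (not SHMT2 and EIF2S1), and 9 of 11 and 3 of 5 from 8 h to 20 h (not SHMT2, CEBPB, PSPH and EIF2S1). Leaving out each array gave 8 to 11 rises and 2 falls at 8 h, 13 to 14 and 3 to 5 at 20 h, and 9 to 14 and 4 to 5 from 8 h to 20 h. Quantile normalization again gave 3 falls from 8 h to 20 h and a median of 0.31. Over genes above the median level alone, the medians of the list were 0.23, 0.47 and 0.38. At 8 h the median was 0.08 with array weights and 0.02 to 0.10 over the fits without 1 array. No scaling moved the median of all genes by over 0.1. Over all genes, the falls at 8 h numbered 1388, or 844 when 8 h replicates 1 and 2 were merged, or 820, 876 and 874 without 8 h replicate 1, 2 or 3. The rises from 8 h to 20 h numbered 1979, or 1314 without 8 h replicate 3. Over the fits without 1 array, these all-gene counts ran from 820 to 1411 and from 1314 to 2339. The all-gene shares given above belong to the unaltered fit. Counts of the 32 genes or of a companion list under an alternative thus have no all-gene share beside them.

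With the replicate block the counts were 9 and 2, 14 and 3, and 9 and 4, and all-gene shares under the block are not given here. Same-numbered arrays had deviations that correlated from -0.318 to 0.111. No pairing was stated, and with 3 arrays per group these correlations cannot show whether there was one. Under the block DDIT4 was called at 20 h (adjusted p = 0.0422).

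Signs turned for differences that were not called. SHMT2 at 8 h was -0.06 with quantile normalization, -0.02 centred and -0.03 with 8 h replicates 1 and 2 as 1, and ranged from -0.09 to 0.10 without 1 array. EIF2S1 at 8 h was 0.01 with those replicates as 1 and ranged from -0.13 to 0.06. PSPH at 8 h ranged from -0.06 to 0.01, and at 20 h TRIB3 ranged from -0.02 to 0.18, EIF4EBP1 from -0.11 to 0.30 (-0.02 centred) and PYCR1 from -0.07 to 0.19. EIF2AK4 from 8 h to 20 h was 0.09 with quantile normalization and ranged from -0.05 to 0.01. The cause was not tested for any of these changes. For the 9 genes called in no setting the SEs limit what could be seen, and 7 of the 32 genes lie below the median level of all genes.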
